A study of Mus musculus with 6 samples.

Results

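The phagocyte NADPH oxidase was described through 6 genes, Cyba, Cybb, Ncf1, Ncf4, Rac2 and Nox4. They were taken with every probe set of the array whose only platform gene symbol is one of these names, which gave 12 probe sets, among 18193 genes with a single symbol. The samples are epididymal white adipose tissue, the fat pad along the epididymis, of male mice 10 weeks of age on a C57BL6;129Sv background. RNA of 3 Pparg ldi/+ mice, which carry 1 ldi copy of Pparg and are described as lipodystrophic in the labels, and of 3 wild-type mice matched by litter was measured on Affymetrix MOE430v2.0 arrays, 1 mouse per array. Pparg is the gene of a nuclear receptor needed for fat cells to form, and the labels do not say what the ldi change is. Both groups share the strain background, the sex and the age, and the labels name no treatment. The RNA is that of a whole fat pad, so every value below sums over adipocytes, vessels, connective tissue and immune cells, and fewer cells of a type cannot be told apart from less RNA per cell.

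The phagocyte NADPH oxidase is a membrane enzyme of macrophages and neutrophils that passes electrons from NADPH to oxygen and so makes superoxide, which serves in the killing of ingested microbes. Its core is a flavocytochrome of the catalytic subunit gp91phox (Cybb) and its partner p22phox (Cyba). On activation cytosolic subunits, among them p47phox (Ncf1) and p40phox (Ncf4), and a Rac GTPase, in blood cells largely Rac2, join it at the membrane. Nox4 encodes a related oxidase that also pairs with p22phox but needs none of the cytosolic subunits, and it is expressed mainly outside the blood lineage, in kidney, vessel wall, fibroblasts and adipocytes.

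Signals are given after scaling each array to the same trimmed mean, and differences as the log2 value of Pparg ldi/+ minus that of wild type, with 32 added to the signal before the logarithm. This offset understates the change of dim genes. Before scaling, the arrays had trimmed means of 201 to 236, and precision is limited by the number of arrays. Pparg, the altered gene, had scaled signals of 1732, 1709 and 1901 in Pparg ldi/+ fat, against 4378, 4440.3 and 4998 in wild-type fat. It was lower on all 3 Pparg ldi/+ arrays, but where its probes lie relative to the ldi change was not tested. The adipocyte marker Adipoq averaged 12010 ± 2576 in Pparg ldi/+ fat and 26686 ± 1431 in wild-type fat (SD, n = 3 each), so the labelled tissue was present in both genotypes. Pparg ldi/+ arrays 1 and 2 stood apart from array 3 by transcripts of the epididymis: the summed signal of 11 epididymal genes was 19102, 26502 and 679 on Pparg ldi/+ arrays 1, 2 and 3, against 532 to 1162 on the wild-type arrays. The main results are therefore also given with Pparg ldi/+ array 3 alone.

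Genes of the phagocyte oxidase were higher in Pparg ldi/+ fat, and Nox4 was not. The 5 genes Cyba, Cybb, Ncf1, Ncf4 and Rac2 rose by 1.99- to 3.14-fold (limma, Benjamini-Hochberg adjusted p of 0.000687 or less), while Nox4, at a log2 difference of -0.40, was not called. Across all 11201 genes tested, 32.7% were called: 16.3% rose and 16.4% fell. The median log2 difference was 1.40 over the 6 genes, beside -0.0043 over all genes tested. A rise of at least 2-fold was found for 4 of the 6 genes, against 4.72% of genes tested. Each of the 6 genes passed the filter on dim signals in both genotypes, so none was tested only because of a high group. With Pparg ldi/+ array 3 alone against the wild-type arrays, the same 5 genes passed, at log2 differences of 1.08 to 1.63. An exact two-sided permutation test of the 6 values of each gene gave p = 0.1 for all 6 genes, the smallest that 3 against 3 arrays allow, since in none of them did the groups overlap. Groups without overlap were found in 47.6% of genes tested, and in 23.6% the Pparg ldi/+ arrays were the higher ones, as in 5 of the 6 genes.

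**Figure D1:**
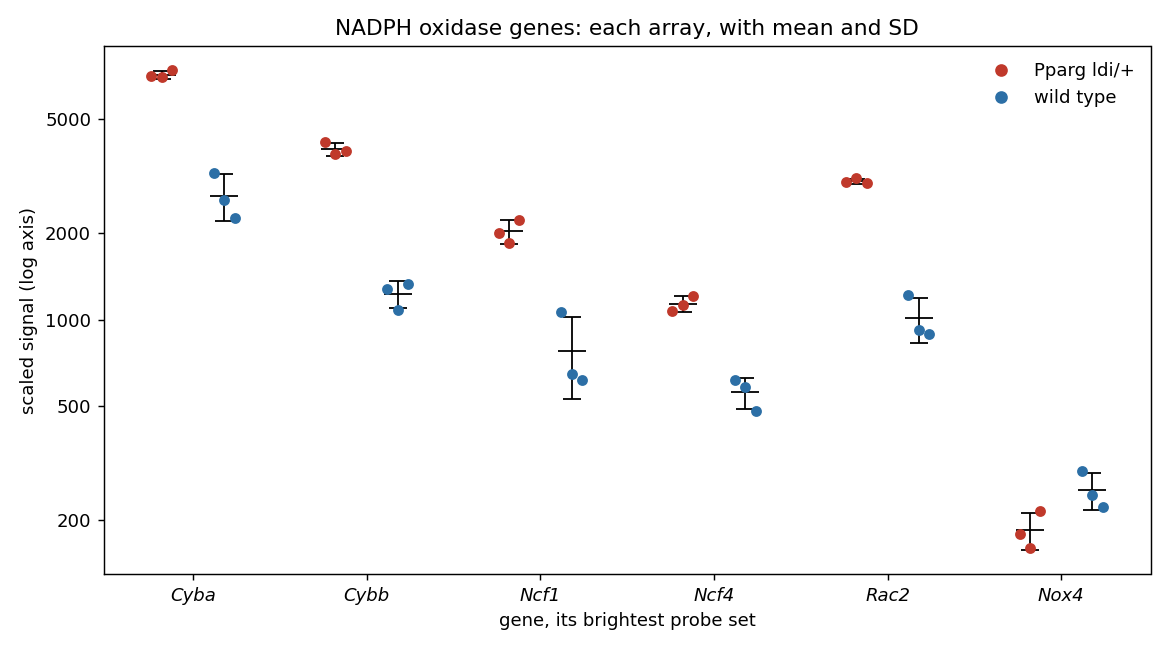
Scaled signal (log axis) of the brightest probe set of each of the 6 genes, with each array as a point, Pparg ldi/+ in red left of wild type in blue, and the mean with SD of 3 arrays as a bar. For Cyba, Cybb, Ncf1, Ncf4 and Rac2 every red point lies above every blue point, and for Nox4 the red points, from 159.7 to 214, lie just below the blue ones, from 222 to 295.

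The membrane subunits were both higher. Cybb, the catalytic subunit, had signals of 4149.9, 3770.4 and 3865 in Pparg ldi/+ fat, against 1282, 1079 and 1335 in wild-type fat. The lowest Pparg ldi/+ array was thus far above the highest wild-type array, and the spread within each genotype was small beside the gap. Cybb rose 3.14-fold, the largest change among the 6 genes (log2 1.65, 95% confidence interval 1.43 to 1.87, SE 0.097, limma adjusted p = 8.18e-06). Only 1.81% of the genes tested had a larger log2 difference. Cyba, the p22phox subunit that both Cybb and Nox4 proteins need, had signals of 7059.7, 7000.5 and 7433 in Pparg ldi/+ fat, against 3248, 2617 and 2259 in wild-type fat. Wild-type array 1 was the highest of its genotype and still less than the lowest Pparg ldi/+ array. Cyba rose 2.65-fold (log2 1.41, 95% confidence interval 1.13 to 1.68, SE 0.121, limma adjusted p = 5.76e-05).

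The sequences just upstream of the start sites are shown for Cybb, the gene with the largest change, for its partner Cyba, and for Nox4, which did not change in the same way. They are the 250 bases before the start in RefSeq (build GRCm38.p6), read 5′ to 3′ on the gene's strand. The windows lie at chrX:9469325-9469574 on the minus strand for Cybb, chr8:122432941-122433190 on the minus strand for Cyba, and chr7:87246399-87246648 on the plus strand for Nox4. Capitals mark matches to CCAAT, the box bound by NF-Y and CDP, and to AAGGAA, a form of the GGAA core that ETS factors such as PU.1 bind.
Cybb: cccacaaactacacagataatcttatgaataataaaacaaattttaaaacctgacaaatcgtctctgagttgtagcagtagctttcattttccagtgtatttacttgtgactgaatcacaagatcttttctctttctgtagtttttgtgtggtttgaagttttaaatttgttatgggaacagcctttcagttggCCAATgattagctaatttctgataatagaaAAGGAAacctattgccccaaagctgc
Cyba: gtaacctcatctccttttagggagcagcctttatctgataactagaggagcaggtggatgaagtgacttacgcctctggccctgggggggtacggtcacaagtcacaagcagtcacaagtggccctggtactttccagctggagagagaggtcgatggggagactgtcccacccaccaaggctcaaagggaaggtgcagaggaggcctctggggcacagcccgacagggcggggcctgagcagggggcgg
Nox4: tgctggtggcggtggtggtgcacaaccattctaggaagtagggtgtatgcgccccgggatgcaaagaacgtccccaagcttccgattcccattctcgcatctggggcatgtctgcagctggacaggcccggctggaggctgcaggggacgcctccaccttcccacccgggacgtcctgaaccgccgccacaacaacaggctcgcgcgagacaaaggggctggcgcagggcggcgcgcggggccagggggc
The Cybb window held 1 CCAAT, which begins 56 bases before the start, and 1 AAGGAA, which begins 26 bases before it, both on the gene's strand. The windows of Cyba and Nox4 held neither motif on either strand, and that of Ncf1 held 0 of each as well. GAGGAA, another form of the ETS core, was absent from all 4 windows. The core GGAA itself, not marked by capitals outside AAGGAA, occurred on either strand 3 times in the Cybb window, 2 times in that of Cyba, 4 times in that of Nox4 and 1 time in that of Ncf1, and 93.4% of all windows held it. Among 32851 windows of the same length, 33.8% held CCAAT, 22.6% AAGGAA and 23.3% GAGGAA on either strand, and every motif but GAGGAA was chosen after the sequences had been seen. The Cybb window was rich in A and T, with 34% G and C, against 60% for Cyba, 54.4% for Ncf1 and 67.2% for Nox4. These matches describe letters, not bound sites. Ncf4 and Rac2 had no window in the table.

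The cytosolic subunits were higher as well. Ncf1 encodes p47phox, the organiser that is phosphorylated on activation and docks onto p22phox. Its signals were 2007, 1850.1 and 2232 in Pparg ldi/+ fat, against 1060.1, 647 and 616 in wild-type fat. The wild-type spread was the widest among the 5 genes that rose relative to its mean, at 774 ± 248 (SD, n = 3), with wild-type array 1 above the other 2. Ncf1 rose 2.63-fold (log2 1.39, 95% confidence interval 0.96 to 1.82, SE 0.189, limma adjusted p = 0.000687). Ncf4 encodes p40phox, which binds phosphatidylinositol 3-phosphate on the phagosome. Its signals were 1074, 1119 and 1212 in Pparg ldi/+ fat, against 613, 581 and 480.2 in wild-type fat. The groups did not overlap, and the change was the smallest of the 5 that passed: Ncf4 rose 1.99-fold (log2 0.99, 95% confidence interval 0.73 to 1.25, SE 0.115, limma adjusted p = 0.00029). Rac2, the GTPase of blood cells, had signals of 3014, 3108 and 2997 in Pparg ldi/+ fat, against 1219.6, 919.6 and 888 in wild-type fat. The 3 Pparg ldi/+ arrays were nearly equal, at 3039.8 ± 59.7, and all lay above the wild-type arrays, at 1009 ± 183 (SD, n = 3 each). Rac2 rose 2.98-fold (log2 1.57, 95% confidence interval 1.30 to 1.85, SE 0.120, limma adjusted p = 3.08e-05).

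In wild-type fat, array 1 was the highest of the 3 arrays for Cyba, Ncf1, Ncf4 and Rac2, but not for Cybb. The summed signal of 19 macrophage markers was also highest there, at 64970.1, beside 51261 and 49071 on wild-type arrays 2 and 3. Without wild-type array 1 the log2 differences were 1.55 for Cyba, 1.68 for Cybb, 1.63 for Ncf1, 1.06 for Ncf4 and 1.71 for Rac2, all still past the threshold.

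Nox4, the oxidase that is not part of the phagocyte complex, was dim and did not pass. Its signals were 178, 159.7 and 214 in Pparg ldi/+ fat, against 295, 245 and 222 in wild-type fat. The groups did not overlap, but the highest Pparg ldi/+ array and the lowest wild-type array were 7.8 apart, less than the SD of either genotype, 27.4 in Pparg ldi/+ and 37.5 in wild type. Nox4 differed by -0.40 on the log2 scale, with a 95% confidence interval of -0.81 to 0.0001 and an SE of 0.177 (limma adjusted p = 0.117). In the fit over probe sets the interval was -0.79 to -0.02 (limma adjusted p = 0.110). With Pparg ldi/+ array 3 alone it was -0.21, and over the alternatives that tested it the log2 difference ranged from -0.50 to -0.21 with adjusted p of 0.0636 to 0.668. These intervals reach from a clear fall to almost no change, so these arrays do not show that Nox4 was the same in both genotypes. Several cell types that can express Nox4 moved in different ways: 7 of 8 adipocyte markers and 8 of 10 endothelial markers fell, at medians of -1.18 and -1.04, while of 10 fibroblast markers 3 rose and 2 fell and of 8 smooth muscle and pericyte markers 3 rose and 1 fell, at medians of -0.05 and 0.30. Over all genes tested 16.3% rose and 16.4% fell. The part of these cell types in the value of Nox4 was not tested.

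Probe sets of 1 gene gave the same direction. Of the 12 probe sets, 10 were bright enough to be tested, and 9 of them rose, where 14.5% of the 22519 probe sets tested did. In each of the 10 tested sets the groups did not overlap, beside 44.4% of all probe sets tested, in either direction. The set of Nox4 among these 10 was the lower one in Pparg ldi/+ fat. All 3 probe sets of Cybb rose, at log2 differences of 1.65, 1.42 and 1.26 from the brightest to the dimmest. All 3 of Ncf1 rose too, at 1.39, 1.64 and 0.98. The dimmer sets of a gene share its RNA and are not further replicates. The second probe set of Rac2 was too dim to be tested, with signals of 262, 156 and 149 in Pparg ldi/+ fat, against 85.5, 164 and 80.1 in wild-type fat. Its groups overlapped, because wild-type array 2 was above Pparg ldi/+ arrays 2 and 3, and the log2 difference was 0.65. The second probe set of Nox4, also too dim, had signals of 87.0, 58.4 and 95.7 in Pparg ldi/+ fat, against 81.0, 83.8 and 101 in wild-type fat, which overlapped, with a log2 difference of -0.11. When a gene's probe sets were averaged, Cybb differed by 1.45 on the log2 scale, while the difference of Ncf1 was 1.34 and that of Rac2 was 1.11. All 3 still passed, and Nox4 was then too dim to be tested.

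**Figure D2:**
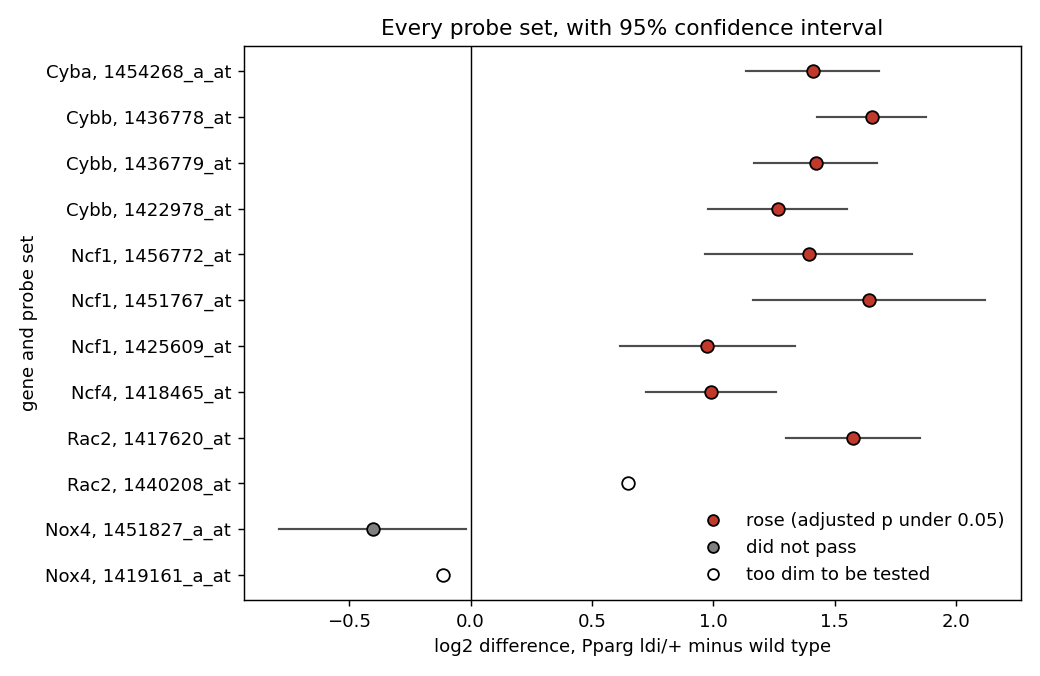
Log2 difference, Pparg ldi/+ minus wild type, of each of the 12 probe sets (a row each, by gene and brightness), with the 95% confidence interval of the limma fit where a set was tested. The 9 red points, of Cyba, Cybb, Ncf1, Ncf4 and Rac2, lie between 0.98 and 1.65, the grey point of Nox4 is at -0.40, and the open points were too dim to be tested.

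Whether subunits of the complex changed by the same factor was compared within arrays, as the log2 value of 1 gene minus that of another. Cybb minus Cyba differed by 0.24 between the genotypes (exact permutation p = 0.4) and Ncf1 minus Ncf4 by 0.40 (exact permutation p = 0.2), and in both the groups overlapped. For Cybb minus Cyba the wild-type arrays alone spread over an SD of 0.31, so a small difference in change was not detectable. Rac2 minus Rac1, the ubiquitous relative, differed by 1.59, with all 3 Pparg ldi/+ arrays above all wild-type arrays (exact permutation p = 0.1). Nox4 minus Cyba differed by -1.81 and Nox4 minus Cybb by -2.06, again without overlap (exact permutation p = 0.1 for both). The p-values are two-sided, 0.1 is the smallest possible, and over the 11 within-array comparisons made here and below the Benjamini-Hochberg adjusted values for p of 0.1, 0.2, 0.4 and 0.5 were 0.183, 0.275, 0.489 and 0.5.

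Macrophage markers moved with the oxidase genes. All 18 tested markers of the macrophage list rose in Pparg ldi/+ fat, beside 16.3% of all genes tested. Their median log2 difference was 1.58, with a range of 0.37 to 2.57. The 5 oxidase genes that rose lie inside that range. The summed signal of the 19 genes of the macrophage list was 135959, 139118 and 138558 on the Pparg ldi/+ arrays, against 64970.1, 51261 and 49071 on the wild-type arrays. Relative to the mean log2 value of the 18 markers on the same array, Rac2 differed between the genotypes by 0.06, Cybb by 0.14 and Ncf1 by -0.12, and the groups overlapped in all 3 (exact permutation p = 0.2, 0.5 and 0.5). Rac2 varied least relative to the markers, with an SD of 0.027 among arrays of either genotype. Cyba differed by -0.11, without overlap between the groups (exact permutation p = 0.1). The ratio of Ncf4 to the markers was lower on all 3 Pparg ldi/+ arrays than on any wild-type array. With the wild-type mean set to 0 it was -0.58, -0.56 and -0.44 on the Pparg ldi/+ arrays and -0.15, 0.15 and -0.003 on the wild-type arrays. The difference of -0.53 had an exact permutation p = 0.1. It ranged from -0.60 to -0.45 over the other offsets, scalings, left-out arrays and a core of 3 markers (Csf1r, Cd68 and Adgre1). Ncf4 had 1 probe set, so no second set could be compared. Some of the 18 markers also rose less than Ncf4, the least at 0.37. Nox4 differed by -1.92, also without overlap (exact permutation p = 0.1). What part macrophage number has in the oxidase values was not tested.

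**Figure D3:**
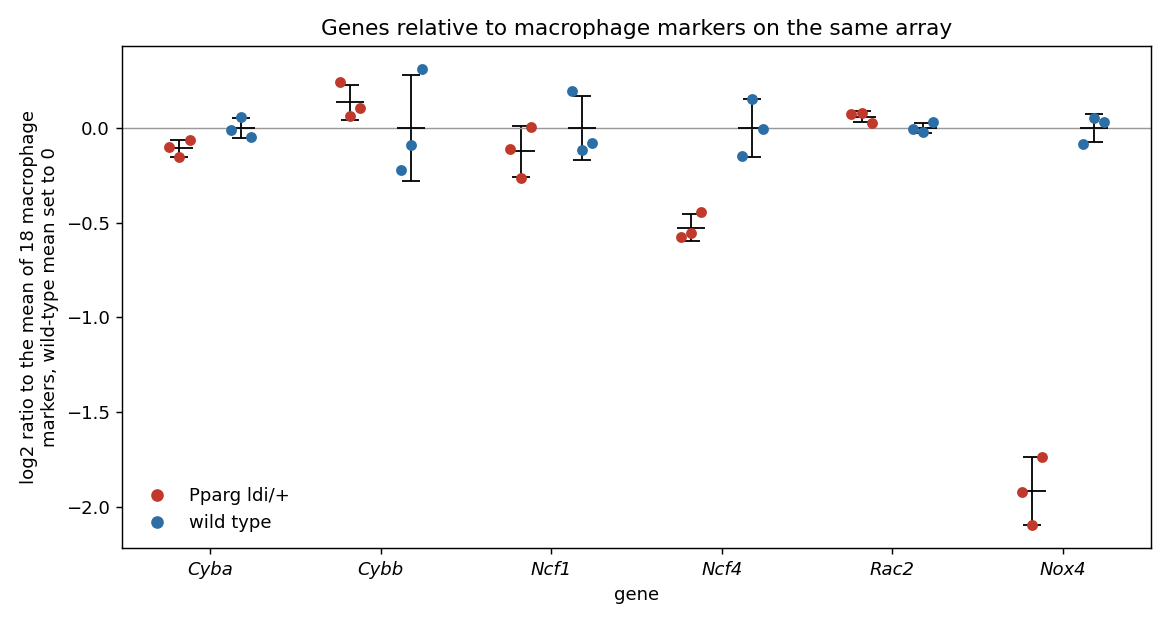
Log2 ratio of each gene to the mean of 18 macrophage markers on the same array, with the wild-type mean of each gene set to 0; points are arrays, Pparg ldi/+ in red left of wild type in blue, and bars are the mean with SD. Rac2 lies within 0.08 of 0 on every array, Ncf4 is lower on the 3 Pparg ldi/+ arrays, at -0.58 to -0.44, and Nox4 lower still, at -2.10 to -1.74.

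Markers of neutrophils, the other main cell with this oxidase, were mostly dim. Of 10 neutrophil markers on the array, 8 were too dim to be tested, among them the granule genes Mpo, Elane, Ltf, Camp and Ngp. The summed signal of the 10 was 2104, 1854 and 1652 on the Pparg ldi/+ arrays, against 1739, 1776 and 1107 on the wild-type arrays, where the groups overlapped, and no marker was at 0. S100a8 was left out in a further sum, a choice made after the values were seen. The other 9 summed to 1531, 1295 and 1236 on the Pparg ldi/+ arrays, against 821, 786 and 859 on the wild-type arrays, without overlap. With Csf3r left out as well, the 8 that remain summed to 960, 838 and 778 on the Pparg ldi/+ arrays. On the wild-type arrays they summed to 664, 605 and 709, again without overlap. As S100a8 was lower on average in Pparg ldi/+ fat, leaving it out favours such a gap. Of the 10 markers 7 had the higher mean in Pparg ldi/+ fat, and in 4 of these the groups did not overlap. Among genes tested, 23.6% had the Pparg ldi/+ arrays above without overlap, but most of these markers were too dim to be tested. Besides Csf3r, those without overlap were S100a9 at 0.85, the myeloperoxidase gene Mpo at 0.44 and the collagenase gene Mmp8 at 0.31. S100a9, which encodes the partner of the S100a8 protein, Mpo and Mmp8 were too dim to be tested. So were Elane at -0.72 and Ltf at -0.09, both lower in Pparg ldi/+ fat and with overlapping groups. S100a8, which encodes a calcium-binding protein abundant in neutrophils, was at -0.26 and was not called (limma adjusted p = 0.695). Csf3r, the receptor for granulocyte colony-stimulating factor, which monocytes also express, rose 2.70-fold (log2 1.43, limma adjusted p = 0.000169). Of 4 tested lymphocyte markers 3 rose, at a median of 1.53 over the 4, and 1 of the 4, Cd79b, was below the limit for dim signals in wild-type fat. Further, 5 of 8 mesothelial markers fell, at a median of -0.56. Over all genes tested 16.3% rose and 16.4% fell. Of 6 tested epididymal genes 4 rose, and 5 of the 6 were below the limit for dim signals in wild-type fat. These transcripts were high on Pparg ldi/+ arrays 1 and 2 and dim on array 3. On array 3 Cyba, Ncf1 and Ncf4 were at their highest, Cybb lay between the other Pparg ldi/+ arrays and Rac2 was lowest, at 2997. The part of neutrophils and lymphocytes in the oxidase values was not tested.

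Genes whose products help to assemble or supply the oxidase were partly higher. Of the assembly partners 6 were tested, and 3 rose and 0 fell, with a median log2 difference of 0.35. Among all genes tested 16.3% rose and 16.4% fell. Cybc1, the chaperone of the gp91phox and p22phox pair, had signals of 1043, 995 and 1139.5 in Pparg ldi/+ fat, against 833, 656 and 679.9 in wild-type fat. The groups did not overlap, and Cybc1 rose 1.45-fold (log2 0.54, SE 0.115, limma adjusted p = 0.00747). Hvcn1, the proton channel that balances the charge moved by the oxidase, rose 1.64-fold (log2 0.72, SE 0.186, limma adjusted p = 0.0177), and Arhgdib, which holds Rac in the cytosol of blood cells, rose 1.45-fold (log2 0.54, SE 0.103, limma adjusted p = 0.00421). Arhgdia was not analysed here. The other 3 were not called: Rac1 was at -0.01, Rap1a, a GTPase found with the flavocytochrome, at 0.04, and the chaperone Hsp90b1 at 0.16. Rac1 had signals of 11072, 11475 and 12129.9 in Pparg ldi/+ fat, against 12312, 10815 and 11862 in wild-type fat, which overlapped. With Pparg ldi/+ array 3 as the only array of its genotype 0 of the 6 partners passed, at log2 differences of 0.64 for Cybc1, 0.65 for Hvcn1 and 0.61 for Arhgdib. Of the other NADPH oxidases and their subunits, 5 of 9 had a probe set with that single symbol in the annotation used. The 2 bright enough to be tested, Duoxa1 at -0.04 and Poldip2 at 0.03, did not pass, and Duox1, Duoxa2 and Noxo1 were too dim, with mean signals of 38.8 to 121 in Pparg ldi/+ fat and 50.7 to 129 in wild-type fat. Nox1, Nox3, Duox2 and Noxa1 were not analysed here.

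Upstream of the oxidase, kinases and Rac exchange factors were mostly higher. Of 13 tested 8 rose and 2 fell, with a median log2 difference of 0.81. Among all genes tested 16.3% rose and 16.4% fell, so the count that fell is near that share. Dock2, the Rac exchange factor of leukocytes, rose 3.31-fold (log2 1.72, limma adjusted p = 1.34e-05), Prkcb, a protein kinase C isoform that phosphorylates p47phox, rose 3.41-fold (log2 1.77, limma adjusted p = 4.24e-05), and Prex1, a Rac exchange factor driven by G protein signals, rose 2.76-fold (log2 1.47, limma adjusted p = 4.91e-05). The 2 that fell were broadly expressed relatives, the kinase gene Prkca at -0.69 and the exchange factor gene Tiam1 at -0.65. With Pparg ldi/+ array 3 alone 6 of this list rose and 0 fell, where Prkca was at -0.70 and Tiam1 at -0.61, and with averaged probe sets 1 fell. Among 7 tested transcription factors known from phagocytes, 2 rose and 1 fell, and the count that fell is again near the share over all genes. Another 1 of the 7, which was not called, was below the limit for dim signals in wild-type fat. Spi1, which encodes PU.1, had signals of 1872, 1584 and 1779.6 in Pparg ldi/+ fat, against 679, 429 and 421 in wild-type fat. The groups stood well apart, and Spi1 rose 3.35-fold (log2 1.74, limma adjusted p = 0.000126). Irf8, its partner in myeloid cells, rose 3.23-fold (log2 1.69, limma adjusted p = 2.43e-05). The one that fell was Cebpa at -1.09, which adipocytes express as well.

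Genes that remove superoxide and peroxide moved in both directions. Of 10 tested 4 fell and 2 rose, with a median log2 difference of -0.25. Over all genes tested 16.4% fell and 16.3% rose, so the count that rose is near that share. Sod3, the extracellular superoxide dismutase, fell (log2 -0.85, limma adjusted p = 0.000228), as did catalase, Cat (log2 -0.57, limma adjusted p = 0.000188), and the cytosolic dismutase Sod1 (log2 -0.34, limma adjusted p = 0.00389). The 2 that rose were Prdx3, a mitochondrial peroxiredoxin, at 0.35 and Txnrd1, a thioredoxin reductase, at 0.38. With averaged probe sets 2 fell, and with Pparg ldi/+ array 3 alone 2 fell and 0 rose, where Prdx3 was at 0.42 and Txnrd1 at 0.41. Of 6 tested enzymes that produce NADPH or act in the pathway that does, 1 rose and 1 fell. Both counts are near the shares over all genes tested. Pgls, of the pentose phosphate pathway, was at 0.44 (limma adjusted p = 0.00168). Me1, the malic enzyme of lipogenic cells, was at -1.15 (limma adjusted p = 0.0003). With Pparg ldi/+ array 3 alone 0 rose, where Pgls was at 0.48, and without wild-type array 2 the count was 2. The next by p, Idh1, was at 0.15 and did not pass (limma adjusted p = 0.199).

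**Figure D4:**
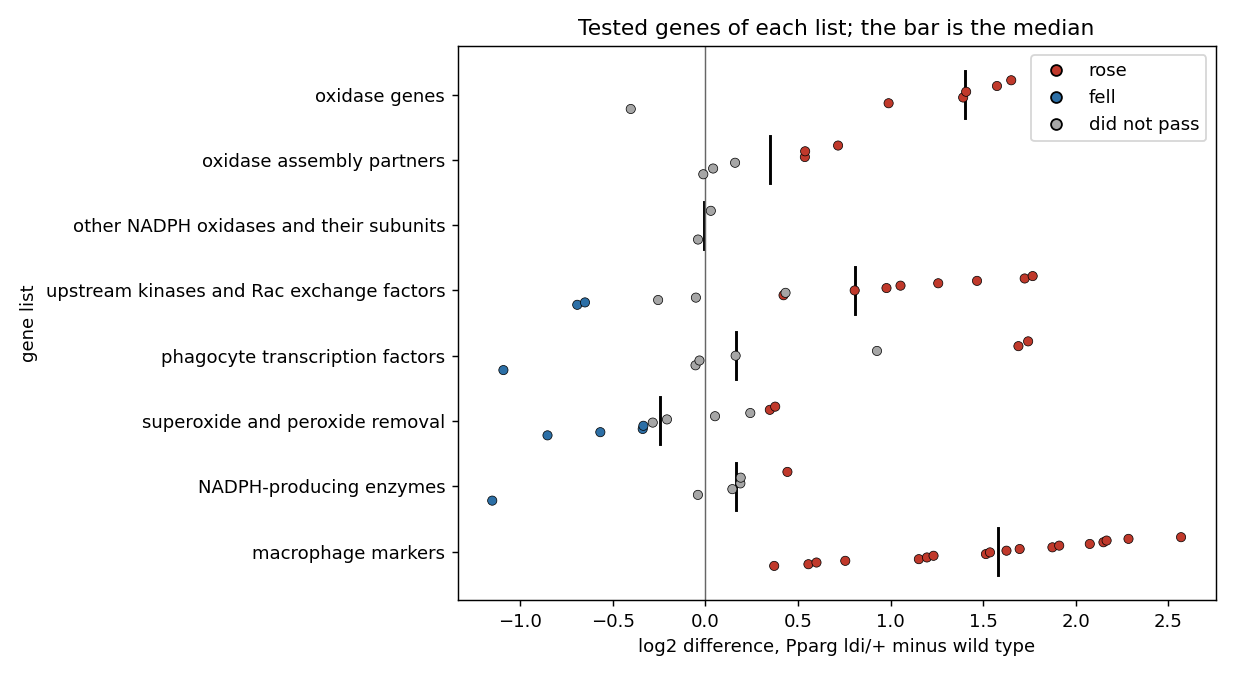
Log2 difference, Pparg ldi/+ minus wild type, of every tested gene of the oxidase set, of 6 lists of related genes and of the macrophage markers; red points rose, blue points fell, grey points did not pass, and the black bar is the median of each list. The medians are 1.40 for the oxidase genes, 0.35 for assembly partners and 1.58 for macrophage markers. That of superoxide and peroxide removal is -0.25, with genes on both sides of 0.

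The genes most like each oxidase gene over the 6 arrays were found by the root mean square difference of log2 values, each gene centred on its own mean. Rac2 was closest to the complement gene C1qc, at 0.065, followed by the cytokine receptor gene Csf2rb2 and the leukocyte surface gene Cd48. Cyba was closest to Gla, a lysosomal galactosidase, at 0.065, then to the inflammasome adaptor gene Pycard and the leukocyte actin regulator gene Coro1a. The nearest to Cybb were Tpd52, at 0.056, the leukocyte integrin gene Itgal and the glutathione transferase gene Gstm1. Ncf1 had the chemokine receptor gene Ccr1, at 0.087, Lrmp and Rab7b, a small GTPase of late endosomes, as its nearest, and Ncf4 had Plekho1, at 0.056, Gprc5b and Blvra, the biliverdin reductase gene. For Nox4 the nearest were Hspg2, which encodes the basement membrane proteoglycan perlecan, at 0.032, then Gsto1 and Map9. With 6 arrays in 2 genotypes, this measure largely reads the difference between genotypes.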

How the data were processed

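Transcripts of 3 Pparg ldi/+ and 3 wild-type fat pads were measured, 1 mouse per array, grouped by sample title. The deposited intensities are on a linear scale, with 1 value for each probe set on each array. MAS5 is named for 2 of the 6 samples, per the submitters' processing notes. Its version and scaling target, and any detection calls, were not found in the labels used. Dim MAS5 values carry more noise.

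Arrays were brought to the same trimmed mean, 500, leaving out 2% of values on either side, and log2 was taken after adding 32. Of 45101 probe sets 64 controls were left out. Symbols of 34945 single-gene probe sets come from the platform annotation, 34741 of them matched by gene number to a RefSeq table (GRCm38.p6). A gene is its brightest probe set (x_at sets left out where another existed), tested where its mean reached the median of all probe sets, a log2 value of 7.46. The 2 genotypes were tested in R 4.3.3 by limma 3.58.1 (lmFit, eBayes with an intensity trend, two-sided, no covariates) over 11201 genes, and in a second fit over 22519 probe sets, and p-values were adjusted by Benjamini-Hochberg. Rose and fell mean an adjusted p under 0.05. Single values and within-array ratios had exact permutation tests. The method was tested on simulated data.

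The members, lists and alternatives were chosen with earlier results of these data known. The genes named are the 6 members, the assembly partners and other oxidases analysed, the 3 of each further pathway list with the smallest p and those called against most of their list, the 3 nearest patterns, and Pparg. Marker lists of macrophages, neutrophils, lymphocytes, endothelium, fibroblasts, smooth muscle, mesothelium, adipocytes and epididymis are given by counts; Adipoq, Cd79b, neutrophil genes and the 3 core macrophage markers are also named, chosen after values were seen. The motifs other than GAGGAA were also chosen then. Alternatives changed the offset, scaling, filter, variance model, probe set choice, block and arrays. Promoter windows come from RefSeq.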

Additional observations from a re-analysis of the deposited data

How the results depend on the processing

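The 5 oxidase genes that rose did so in each of 20 alternatives (offset 16 or 100, a floor of 32, quantile or no scaling, no filter or the brighter 30% of probe sets, 4 changes of variance model or block, 2 of probe set choice, each array left out, and Pparg ldi/+ array 3 alone). Nox4 passed in none (0) of the 18 that tested it. The log2 difference ranged from 1.29 to 1.55 for Cyba, 1.45 to 1.71 for Cybb, 1.26 to 1.63 for Ncf1, 0.89 to 1.08 for Ncf4 and 1.11 to 1.71 for Rac2. With Pparg ldi/+ array 3 alone, a fit of 1 array against 3 that takes its spread from the wild-type arrays, as if the lone array varied as they do, 730 genes rose and 886 fell (1831 and 1837 with all arrays), and 1222 probe sets rose and 1504 fell (3258 and 3273). The 3 assembly partners, the 2 kinase or exchange factor genes that fell, the 2 peroxide-removing genes that rose and the 1 NADPH-producing gene that rose became 0 there, in a fit with fewer samples, while Cybc1 was at 0.64, Prkca at -0.70, Prdx3 at 0.42, Txnrd1 at 0.41 and Pgls at 0.48. The count of removal genes that fell was 2 there, beside 4. With averaged probe sets 1 gene of the kinase list and 2 of the removal list fell. Leaving out each array in turn, 1 to 2 NADPH-producing genes rose, the higher count without wild-type array 2. The sample titles number both genotypes alike, and whether the number pairs littermates is not known. Deviations from the group means correlated at -0.13, -0.09 and -0.09 for same-numbered arrays over the genes tested, below the other pairs. Centring 3 arrays on their group mean ties these correlations to each other, so they cannot settle it. With the title number as a block, 1568 genes rose and 1598 fell, and the 5 oxidase genes kept their calls. Of the 424 alternative log2 differences and ratios, which have a sign, 0 turned it. Some could not: the filter, the block and most changes of variance model leave a log2 difference as it was. A gene and its brightest probe set are also both counted. Without detection calls, signal over background was not known, which limits Nox4 and the second Rac2 probe set most.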
